A study of Mus musculus with 12 samples.

Results

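The serum amyloid A and pentraxin genes of the mouse liver were followed array by array in a study of cytokine injection. The members are the probe sets that the platform annotation gives the symbol Saa2, Saa3, Saa4, Apcs or Crp, which makes 5 genes of 8251 and 6 probe sets of 12422 once control probe sets are left out. Saa2 has 2 probe sets and the other genes have 1 each. Total liver RNA was measured on 12 Affymetrix arrays in 6 groups of 2, and every mouse had been killed 4 h after it was injected intraperitoneally. Control mice were albumin-cre(-) Socs3(w/fl), so they carried a floxed Socs3 allele and no recombinase, and were given either phosphate-buffered saline, abbreviated PBS, or the cytokine interleukin-6 (IL-6). The Socs3-deleted mice were albumin-cre(+) Socs3(-/fl), with Cre driven by the albumin promoter of hepatocytes, and were given the same agents. Ifng-null mice, which lack interferon-gamma (IFN-γ), were given PBS or that cytokine. All cells of a control mouse keep a wild-type and a floxed Socs3 allele, and cells other than hepatocytes in a Socs3-deleted liver keep the floxed one. The labels used here give neither age nor strain background, and do not say that the 2 replicates of a group were separate mice, so every p-value measures only the spread between these arrays, which may be technical.

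Serum amyloid A proteins are small apolipoproteins of high-density lipoprotein (HDL), and the acute phase forms are released by the liver when cytokines signal infection or injury. Pentraxins are ring-shaped pattern recognition proteins that bind microbial surfaces and cell debris and engage complement and Fc receptors. IL-6 signals through gp130, JAK kinases and STAT3, and SOCS3 binds gp130 and damps that signal. In the mouse, serum amyloid P component is the pentraxin known for large acute phase rises, while C-reactive protein, the classical human marker, is known to respond only modestly.

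Each array gave 1 signal intensity per probe set on a linear scale. Array medians lay between 80.6 and 85.7 and array maxima between 13188 and 14680, and the replicates of a group correlated at r = 0.977 to 0.987. Intensities under a floor of 33.0, the 25th percentile of all values, were set to it before log2 was taken, and 9641 probe sets above it on at least 2 arrays were tested, all 6 members among them. The lowest member value on any array was 83.6, so the floor touched no member. The brighter Socs3 probe set read 74.4 to 106 on the 4 arrays of Socs3-deleted mice and 117 to 167 on the 4 of control mice, while Ifng read at most 7.81 on every array and so could not check the Ifng-null label. Of 15 listed hepatocyte markers 12 were measured, all above the floor on every array, from Hpd at 144 to 234 to albumin (Alb) at 10990.4 to 13413, and their sum ran from 54120 to 69047. Most read lower after a cytokine. For IL-6 in controls 1 of 12 differences was positive (median -0.13), against 45.2% of all tested probe sets (median -0.01). For IL-6 in Socs3-deleted mice 2 of 12 were positive (median -0.19), against 50.5% (median 0.00). For IFN-γ 0 of 12 were positive (median -0.26), against 39% (median -0.03). The 1 hepatocyte marker called was Hpd, which encodes a tyrosine catabolism enzyme. It fell after IL-6 with Socs3 deleted (log2 -0.57 ± 0.11 SE, limma adjusted p = 0.046), where 1.17% of all tested probe sets were called. Pancreatic enzyme genes set apart 2 arrays, replicate 2 of control mice after PBS and replicate 2 of Socs3-deleted mice after PBS. On these the 7 measured pancreatic acinar markers summed to 7815 and 17160, against 1281 to 1562 on the other arrays, and Prss2, a trypsinogen gene, read 651 and 1863 against at most 27.3. Both arrays lie in groups used below, so values without them are given beside the results. The erythroid marker Hba-a1 also differed between replicates. It read 316 and 6389 in control mice after PBS and 364 and 3649 after IL-6. With Socs3 deleted it read 1688 and 4864 after PBS and 294 and 3584 after IL-6. In Ifng-null mice it read 325 and 317 after PBS and 497 and 1298 after IFN-γ. Its relation to the member values was not tested.

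The serum amyloid A genes lie next to each other on chromosome 7 of the RefSeq GRCm38.p6 assembly. Saa3 runs from 46711998 to 46719615, Saa4 from 46727992 to 46732603 and Saa2 from 46751833 to 46754313, with the pseudogene Saa-ps and Saa1 between Saa4 and Saa2. Crp (172698056 to 172699966) and Apcs (172893961 to 172895054) neighbour each other on chromosome 1. No probe set carries the symbol Saa1 in the annotation, and RefSeq lists Saa2 as a synonym of Saa1 and Saa1 as a synonym of Saa2. The 250 bases before the start of Saa1 and of Saa2 are 95.2% identical (238 bases), against 50% to 55.6% for the other 14 pairs among Saa1 and the 5 members. The transcripts are close copies too, as is known of this pair, and the suffix f of the brighter Saa2 probe set marks a probe set shared by a sequence family. Its values, and with less certainty those of the dimmer Saa2 probe set, may therefore hold signal from Saa1.

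The upstream windows of 4 members are shown, chosen by correlations over these same arrays. Saa2, Saa3 and Apcs correlated with each other at r = 0.702 to 0.855. Crp, whose window is not printed, correlated with Apcs at 0.683 and with Saa4 at 0.822, and no grouping was tested. Saa4, a neighbour of Saa2 and Saa3, correlated with Saa3 at 0.146 and with the Saa2 probe sets at 0.472 (dimmer) and 0.509 (brighter). They are 250 bases each, 5′ to 3′ on the strand of the gene, from RefSeq GRCm38.p6. Saa2 is chr7:46751583-46751832 on the plus strand, and Saa3 (chr7:46715677-46715926), Saa4 (chr7:46732604-46732853) and Apcs (chr1:172895055-172895304) are on the minus strand. For Saa3 the window precedes a start inside the gene record, whose outer end belongs to a longer transcript. Capitals mark matches on either strand to a STAT-type motif, TTCNNNGAA, or a C/EBP-type motif, TTNNGNAA.
Saa2: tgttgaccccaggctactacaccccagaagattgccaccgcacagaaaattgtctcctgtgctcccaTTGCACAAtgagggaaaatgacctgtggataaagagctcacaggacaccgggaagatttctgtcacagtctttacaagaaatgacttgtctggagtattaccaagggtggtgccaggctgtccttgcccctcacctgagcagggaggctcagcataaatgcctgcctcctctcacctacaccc
Saa3: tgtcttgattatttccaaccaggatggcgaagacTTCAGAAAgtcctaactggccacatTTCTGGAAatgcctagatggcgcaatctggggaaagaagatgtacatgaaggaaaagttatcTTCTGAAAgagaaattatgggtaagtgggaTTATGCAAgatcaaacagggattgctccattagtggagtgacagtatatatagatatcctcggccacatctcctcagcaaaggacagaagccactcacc
Saa4: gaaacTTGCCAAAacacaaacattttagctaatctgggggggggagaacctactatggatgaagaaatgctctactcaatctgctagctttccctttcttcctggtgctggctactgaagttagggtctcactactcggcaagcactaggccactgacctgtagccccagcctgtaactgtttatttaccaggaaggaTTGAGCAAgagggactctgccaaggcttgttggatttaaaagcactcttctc
Apcs: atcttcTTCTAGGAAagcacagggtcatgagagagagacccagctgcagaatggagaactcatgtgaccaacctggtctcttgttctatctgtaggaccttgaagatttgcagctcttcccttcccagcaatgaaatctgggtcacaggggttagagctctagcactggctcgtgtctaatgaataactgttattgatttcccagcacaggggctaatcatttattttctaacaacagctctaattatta
The C/EBP-type letters occur 4 times in the Saa3 window, 2 times in that of Saa4 and once in that of Saa2, and not in that of Apcs. Of 32851 upstream windows of this length, 36.8% hold at least 1 such match. The Apcs window holds the 1 STAT-type match of the set, TTCTAGGAA, a motif found in 7.0% of windows. The Crp window, from 172697806 to 172698055 of chromosome 1, holds 1 C/EBP-type match. A search for an NF-kappaB-type motif, GGANTTTCC, on both strands found none in the 5 windows, against 1.1% of all windows. These are matches of letters only, and they say nothing about binding.

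Saa2 encodes an acute phase serum amyloid A that circulates on HDL. On its brighter probe set the control arrays read 3254 and 545 after PBS and 10438 and 7467 after IL-6. With Socs3 deleted the values were 8619.6 and 10652 after PBS and 10046 and 10906 after IL-6. In Ifng-null mice they were 3588 and 479 after PBS and 3101 and 6434 after IFN-γ. The 6 arrays of control mice after IL-6 and of Socs3-deleted mice with either injection thus lay together above the other 6, and the 3 groups they form overlapped in the order of their means. The next group, Ifng-null mice after IFN-γ, lay below all of them and overlapped with the PBS arrays of Ifng-null mice, which overlapped with those of control mice. Within each PBS group of control and Ifng-null mice, replicate 1 was the high array and replicate 2 the low one, 5.97-fold and 7.48-fold apart.

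The brighter Saa2 probe set was among the brightest of the array in the high groups. On the arrays of control mice after IL-6 and of Socs3-deleted mice it ranked between 11 and 29 among 12422 probe sets and reached 50.9% to 80.4% of the array maximum. In control mice after PBS it reached 22.2% and 4.0% of the maximum. In Ifng-null mice it reached 25.9% and 3.5% after PBS and 23.5% and 48.6% after IFN-γ, the last of these at rank 29. The dimmer Saa2 probe set, at most 978 on any array, stayed far from the top of the scale. Its control values were 242 and 83.6 after PBS and 844 and 457 after IL-6. Its Socs3-deleted values were 631 and 854 after PBS and 929 and 978 after IL-6, here with no overlap. Its Ifng-null values were 204 and 84.5 after PBS and 230 and 489 after IFN-γ. The lowest and highest of the 4 Socs3-deleted arrays were 1.27-fold apart on the brighter probe set and 1.55-fold on the dimmer. On the 4 PBS arrays of control and Ifng-null mice the order was the other way, with 7.48-fold on the brighter and 2.90-fold on the dimmer. Across the 12 arrays the log2 values of both probe sets correlated at r = 0.966, a description over arrays that share 6 groups. Whether the brighter probe set was near saturation was not tested, and the sources used here give no saturation flag.

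**Figure D1:**
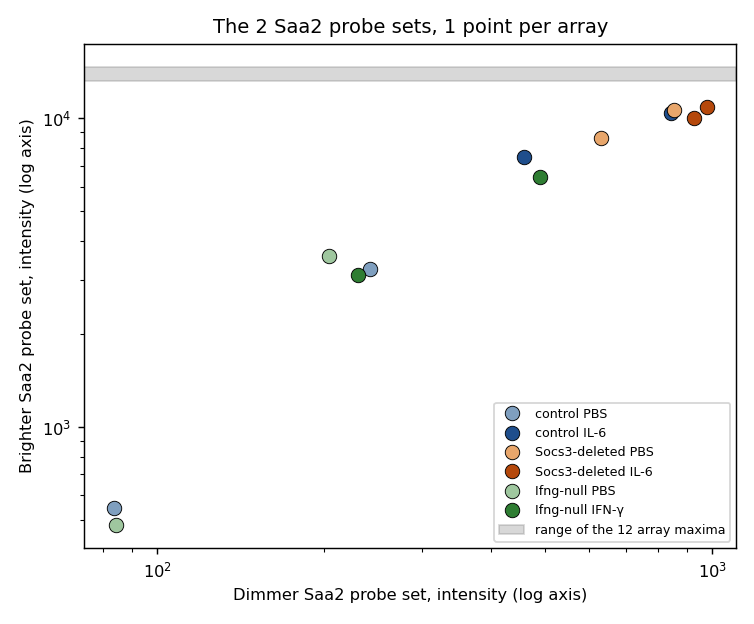
Intensity of the brighter against the dimmer Saa2 probe set, both on log axes, with 1 point per array coloured by group and a grey band for the range of the 12 array maxima (13188 to 14680). The 4 Socs3-deleted arrays cluster at the top, between 8619.6 and 10906 on the vertical axis, and replicate 2 of the PBS groups of control and Ifng-null mice lies lowest, at 545 and 479.

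Saa3 encodes a serum amyloid A that is also made outside hepatocytes in the mouse, in macrophages and adipose tissue. The control arrays read 117 and 140 after PBS and 2786 and 442 after IL-6. The Socs3-deleted arrays read 969 and 544 after PBS and 4809.5 and 4948 after IL-6. The Ifng-null arrays read 202 and 147 after PBS and 409 and 1051 after IFN-γ. Saa3 was highest in Socs3-deleted mice after IL-6, where both arrays lay above every other array and within 1.03-fold of each other. On these arrays it ranked 55 and 50 and reached 33.3% and 36.5% of the array maximum. Below them came control mice after IL-6, Socs3-deleted mice after PBS and Ifng-null mice after IFN-γ, and each of these groups overlapped with the next. The PBS arrays of Ifng-null mice lay below these 3 groups and those of control mice lay lowest, without overlap. The 2 control arrays after IL-6 differed 6.30-fold, the widest gap within a group for this gene. In bulk tissue a lower level in each cell and fewer cells of a type cannot be told apart.

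Saa4 encodes the constitutive serum amyloid A of HDL. Its control arrays read 846 and 423 after PBS and 765 and 922 after IL-6. Its Socs3-deleted arrays read 692 and 1137 after PBS and 338 and 1290.4 after IL-6. Its Ifng-null arrays read 704 and 427 after PBS and 367 and 487 after IFN-γ. Every group overlapped with its neighbour in the order of means, and both the lowest and the highest of the 12 arrays were in 1 group, Socs3-deleted mice after IL-6.

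Apcs encodes serum amyloid P component, the main acute phase pentraxin of the mouse. Its control arrays read 498 and 383 after PBS and 1548 and 1364 after IL-6. Its Socs3-deleted arrays read 1471 and 3876 after PBS and 1777 and 2115 after IL-6. Its Ifng-null arrays read 542 and 949 after PBS and 940 and 1608 after IFN-γ. The control PBS arrays lay below all others, and the highest array was replicate 2 of Socs3-deleted mice after PBS, which also carried the highest pancreatic enzyme signal. The part of that signal in the Apcs value was not tested. In the order of means, Socs3-deleted mice after PBS overlapped with those after IL-6, which lay above control mice after IL-6. The latter overlapped with Ifng-null mice after IFN-γ, and these with Ifng-null mice after PBS.

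Crp encodes C-reactive protein, the other short pentraxin. Its control arrays read 641 and 590.2 after PBS and 905 and 744 after IL-6. Its Socs3-deleted arrays read 701 and 1124 after PBS and 626 and 960 after IL-6. Its Ifng-null arrays read 666 and 638 after PBS and 533 and 595 after IFN-γ. All 12 values fell between 533 and 1124, the narrowest spread of the 6 probe sets, and each group overlapped with its neighbour in the order of means.

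**Figure D2:**
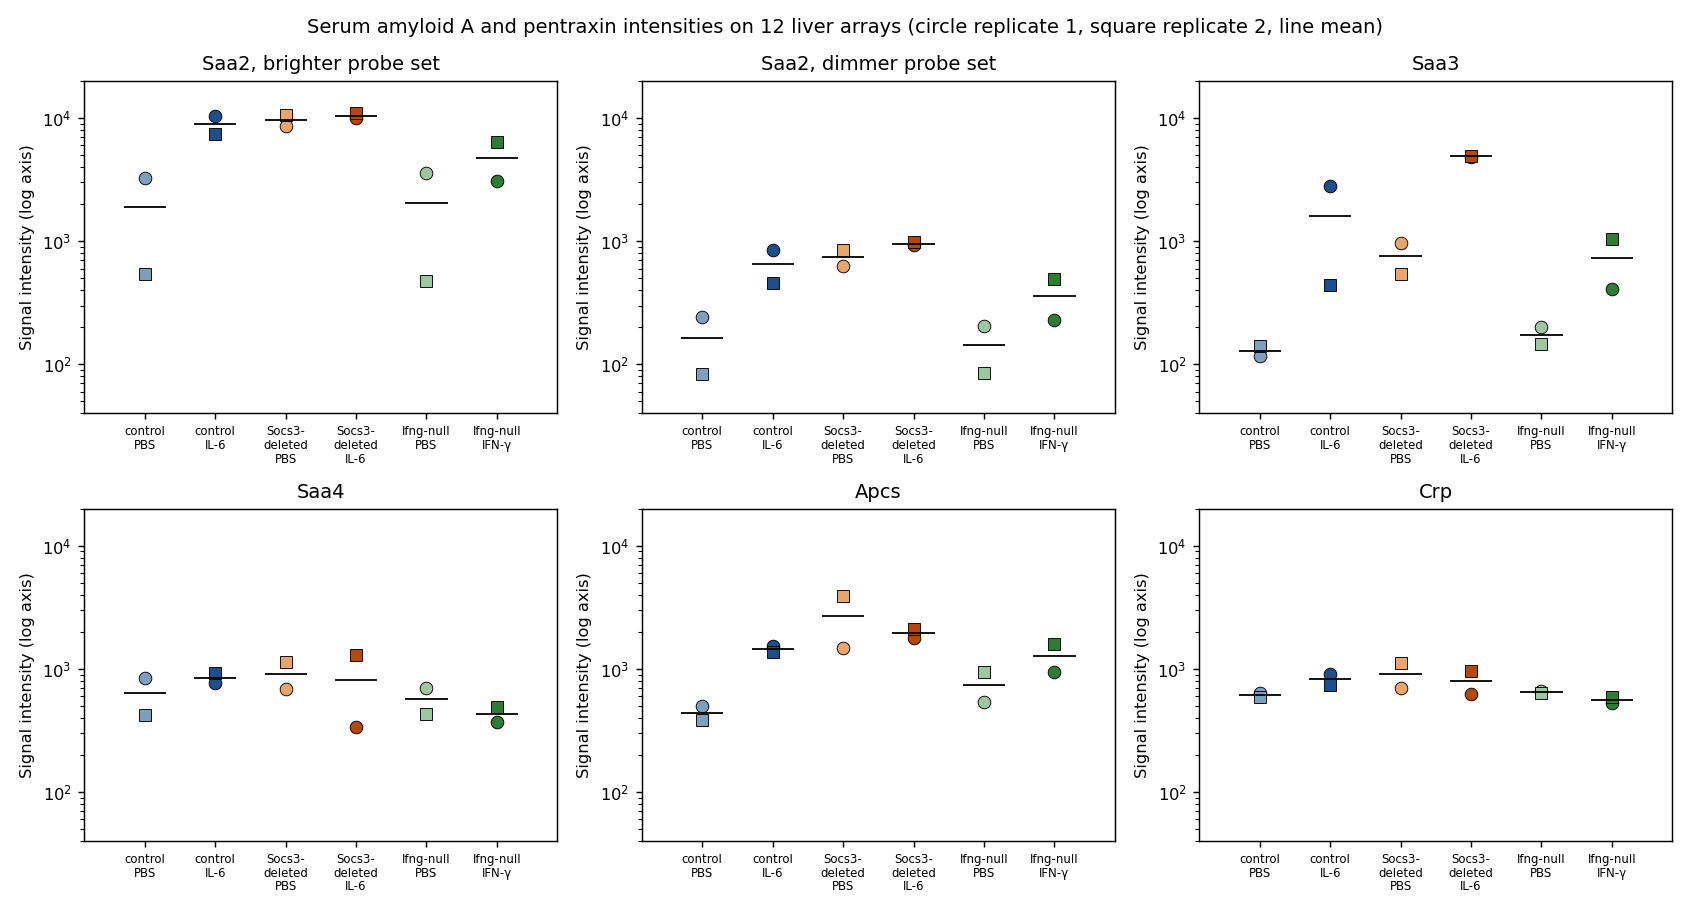
Signal intensity (log axis) of the 6 probe sets on each of the 12 arrays, with circles for replicate 1, squares for replicate 2 and a line at the group mean. By group mean, Saa2, Saa3 and Apcs are lowest in the PBS groups of control and Ifng-null mice. Saa2 and Apcs are highest in the Socs3-deleted groups, and Saa3 is highest in Socs3-deleted mice after IL-6. For Saa4 and Crp every group overlaps with its neighbour in the order of means, and some neighbours overlap for the other members too.

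In control mice IL-6 left both arrays above both PBS arrays for 5 of the 6 probe sets, all but Saa4. Of all 9641 tested probe sets 13% showed such an order in this direction. Saa3 was 8.64-fold higher (log2 3.11 ± 0.73 SE), the brighter and dimmer Saa2 probe sets 6.63-fold (2.73 ± 0.94 SE) and 4.37-fold (2.13 ± 0.58 SE) and Apcs 3.33-fold (1.73 ± 0.44 SE). Crp was 1.33-fold higher (0.42 ± 0.24 SE) and Saa4 1.40-fold (0.49 ± 0.57 SE). All 6 differences were positive, with a median of 1.93 against -0.01 for all tested probe sets. None passed limma's test after Benjamini-Hochberg adjustment over all tested probe sets at a threshold of 0.05. The adjusted p was 0.814 for Saa3 and 0.859 for Apcs and 1.0 for the others. In this comparison limma called 0 probe sets of any kind (0%), with 248 at an unadjusted p under 0.05. Leaving out the 2 arrays of high pancreatic enzyme signal leaves 1 PBS array. The log2 difference was then 1.44 for the brighter and 1.36 for the dimmer Saa2 probe set, 3.24 for Saa3 and 1.54 for Apcs. It was 0.36 for Crp and -0.01 for Saa4. Without replicate 2 after IL-6, the lower Saa3 array, the Saa3 difference was 4.44 and passed (limma adjusted p = 0.0326), and without replicate 1 it was 1.78. Without replicate 1 after PBS the brighter Saa2 difference was 4.02, so these data do not order the members by size.

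In Socs3-deleted mice only Saa3 and the dimmer Saa2 probe set had both IL-6 arrays above both PBS arrays, against 19.6% of all tested probe sets. Saa3 was 6.72-fold higher after IL-6 (log2 2.75 ± 0.73 SE, limma adjusted p = 0.147). The Saa2 probe sets were 1.09-fold (brighter) and 1.30-fold (dimmer) higher, with 95% intervals of the log2 difference from -1.99 to 2.25 and from -0.92 to 1.68. Apcs, Saa4 and Crp had negative differences of -0.30, -0.43 and -0.20, and their intervals also held 0. No member passed the test, while 1.17% of all tested probe sets did. The Saa3 difference passed when either control array after IL-6 was left out (limma adjusted p = 0.0207), arrays that enter this comparison only through the pooled spread. Without the 2 arrays of high pancreatic enzyme signal it was 2.33 (limma adjusted p = 0.691), the difference of Apcs turned to 0.40 and that of Crp to 0.15, and the Saa2 probe sets differed by 0.28 (brighter) and 0.59 (dimmer).

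The IL-6 response of Socs3-deleted mice was smaller than that of control mice for all 6 probe sets in the estimates, and no difference between the responses passed the test. It was -2.60 ± 1.33 (SE, log2) for the brighter Saa2 probe set, -1.75 ± 0.82 for the dimmer, -2.04 ± 0.62 for Apcs, -0.92 for Saa4, -0.61 for Crp and -0.36 ± 1.03 for Saa3. Limma's adjusted p was 0.946 for Apcs and 0.999 for the others, and it called 0.0415% of all tested probe sets. Of all tested probe sets 52.6% had a positive difference of responses. The 6 estimates come from the same arrays and 2 of them are of Saa2, so their shared sign is not separate evidence. The 95% interval of the Saa3 difference ran from -2.68 to 1.96, so a larger response in either genotype lies within it. Without replicate 1 of control mice after IL-6 the Saa3 difference was 0.96, and without replicate 2 it was -1.69. Without the 2 arrays of high pancreatic enzyme signal the differences stayed negative, at -1.16 and -0.76 for the brighter and dimmer Saa2 probe sets, -1.15 for Apcs, -0.91 for Saa3, -0.21 for Crp and -0.06 for Saa4.

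Averaged over both genotypes, all 6 IL-6 differences were positive, against 45.9% of all tested probe sets, and Saa3 was the 1 member called. Its log2 difference was 2.93 ± 0.52 (SE), or 7.62-fold, with a 95% interval from 1.77 to 4.09 (limma adjusted p = 0.0307). All 4 IL-6 arrays lay above the PBS arrays of their own genotype, and 1.06% of all tested probe sets were called. The call was held in 13 of 25 alternative settings, with adjusted p from 0.00176 to 0.294. It was lost with no filter on low values (limma adjusted p = 0.218), with a robust fit (0.0799) and with the compared arrays alone (0.0925). It was also lost without the 2 arrays of high pancreatic enzyme signal (2.79, limma adjusted p = 0.294) and on leaving out any 1 array of control mice after PBS, of Socs3-deleted mice with either injection or of Ifng-null mice after PBS. On leaving out 1 array the difference itself stayed between 2.27 and 3.59. The other averaged differences were 1.43 and 1.25 for the brighter and dimmer Saa2 probe sets, 0.72 for Apcs, 0.11 for Crp and 0.03 for Saa4, none past the threshold. Without the pancreatic arrays they were 0.86, 0.98, 0.97, 0.25 and -0.04.

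**Figure D3:**
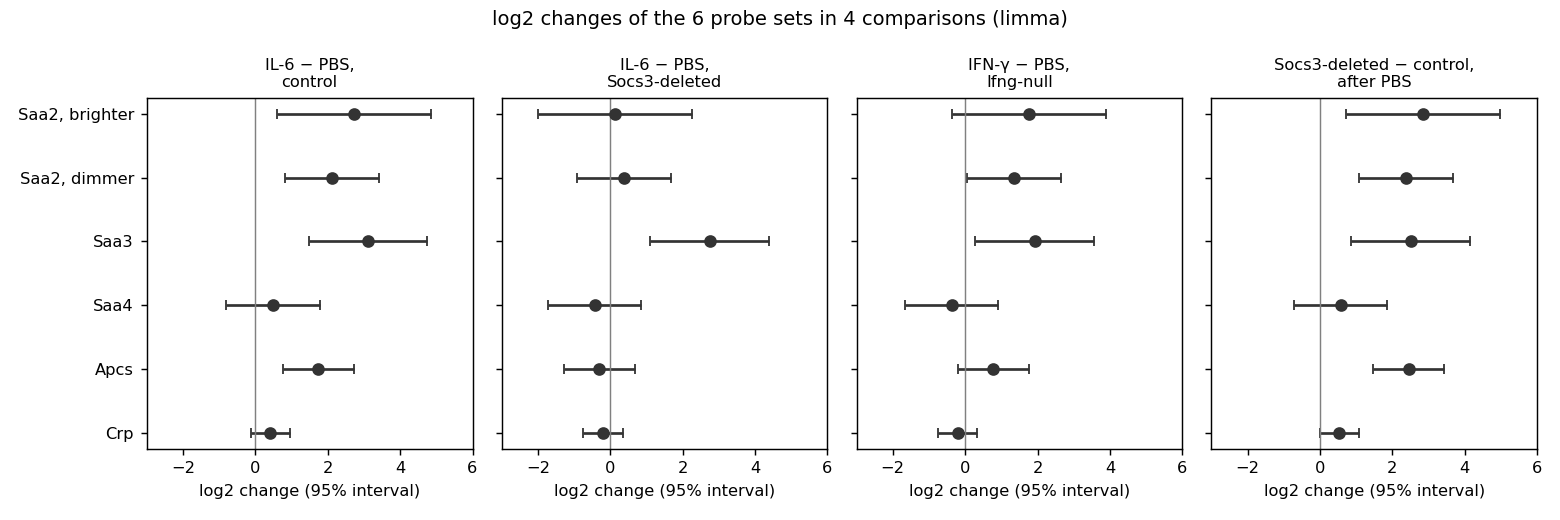
Difference of mean log2 intensity for the 6 probe sets in 4 comparisons, with points for the limma estimate and bars for its 95% interval. Saa2, Saa3 and Apcs lie right of 0 in the first and last panels (IL-6 in control mice, genotypes after PBS), and in the second Saa3 alone has an interval without 0 (1.11 to 4.39). The intervals are not adjusted for the number of probe sets tested.

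Socs3-deleted livers lay above control livers without a cytokine injection. After PBS both of their arrays lay above both control arrays for 5 of the 6 probe sets, all but Saa4, an order seen for 15.9% of all tested probe sets. The brighter Saa2 probe set was 7.20-fold (log2 2.85 ± 0.94 SE), Saa3 5.65-fold (2.50 ± 0.73 SE), Apcs 5.47-fold (2.45 ± 0.44 SE) and the dimmer Saa2 probe set 5.16-fold (2.37 ± 0.58 SE) higher. Saa4 was 1.48-fold and Crp 1.44-fold higher. None passed limma's test, with the lowest adjusted p at 0.246 for Apcs. Limma called 0% of all tested probe sets in this comparison, with 402 at an unadjusted p under 0.05. It shares the control PBS arrays with the IL-6 comparison in control mice, so the likeness of the values for the same probe sets is no separate evidence. Each of the 2 groups holds 1 array of high pancreatic enzyme signal, and leaving out both leaves 1 array on each side. The differences were then 1.41 and 1.38 for the Saa2 probe sets, 3.04 for Saa3, 1.56 for Apcs and -0.29 for Saa4. For Crp the log2 difference was then 0.13, against 0.53 with all arrays. Without replicate 1 of the Socs3-deleted PBS arrays alone the Apcs difference was 3.15 and passed (limma adjusted p = 0.0452).

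After IL-6 the Socs3-deleted arrays lay above both control arrays for Saa3, the dimmer Saa2 probe set and Apcs, against 17.9% of all tested probe sets. Saa3 was 4.40-fold higher (log2 2.14 ± 0.73 SE, limma adjusted p = 0.348), and the other members differed by less than 1 on the log2 scale, from -0.35 for Saa4 to 0.62 for the dimmer Saa2 probe set. No member passed, while 0.954% of all tested probe sets did. The size of the Saa3 difference rests on the 2 control arrays after IL-6. Without replicate 2, the lower array, it was 0.81, and without replicate 1 it was 3.46 and passed (limma adjusted p = 0.0271).

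Macrophage markers had mostly positive differences between the genotypes, none past the test. The 12 measured markers of macrophages and Kupffer cells all had positive differences between Socs3-deleted and control mice after PBS (median 0.33) and 11 of 12 after IL-6 (median 0.43), against 45.6% and 45.2% of all tested probe sets. Their summed intensity was 2913 to 3388 in control mice after PBS, 3299 to 3389 after IL-6, and in Socs3-deleted mice 3624 to 4395 after PBS and 3934 to 5187 after IL-6. In Ifng-null mice it was 3112 to 4225 after PBS and 2842 to 4494 after IFN-γ, which overlapped with both Socs3-deleted groups. Adgre1, the gene of the macrophage marker F4/80, read 70.9 to 137 over the 12 arrays and Clec4f, a Kupffer cell lectin, 389 to 689. The part of these cells in the Saa3 values was not tested. Of 7 measured adipocyte markers of 11 listed, 5 were tested and none was called, and the 7 summed to 723 to 990 over the 12 arrays. Among them Adipoq, the adiponectin gene that defines adipocytes, lay below the floor on every array, at 12.9 to 18.8, as did Cidec, while Lep read 459 to 706 and Retn 79.2 to 113. The 11 measured neutrophil markers of 13 summed to 688 to 783 over the 12 arrays, with 8 of them tested and none called.

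**Figure D4:**
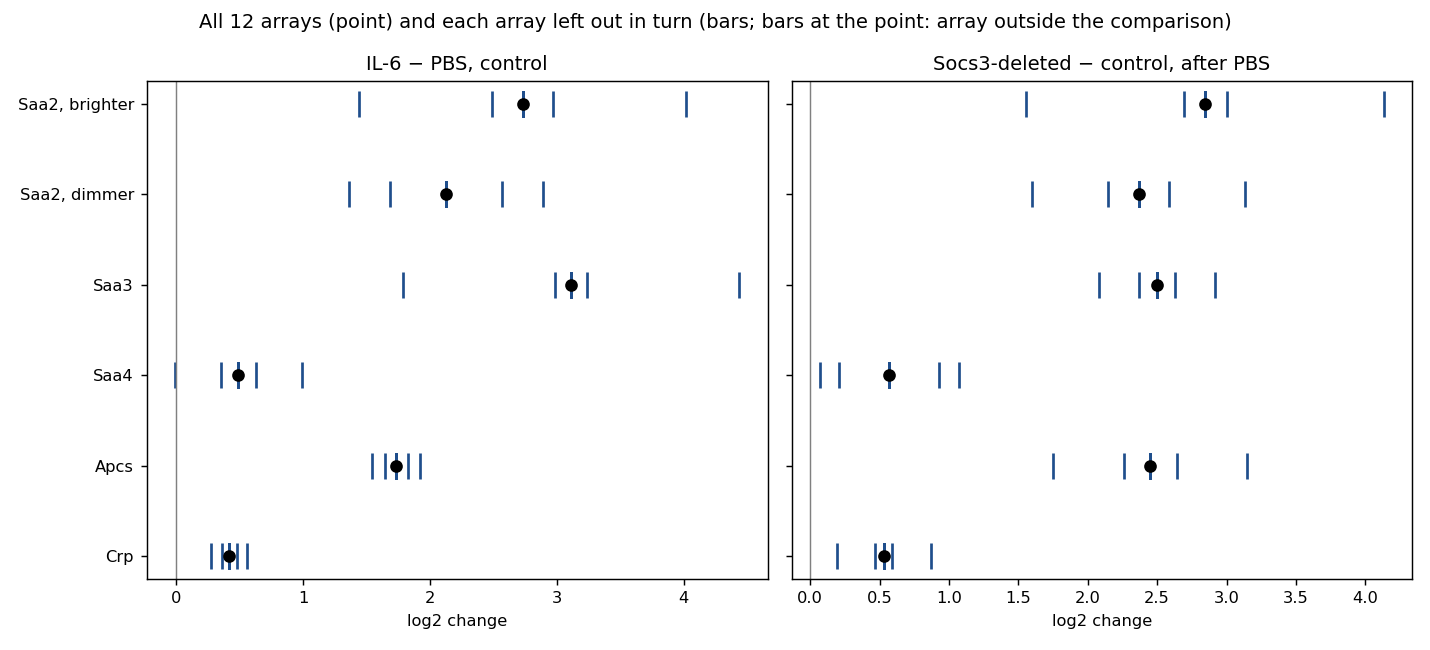
Difference of mean log2 intensity with all 12 arrays (point) and with each array left out in turn (bars), for IL-6 against PBS in control mice and for the comparison of genotypes after PBS. The bars of the brighter Saa2 probe set reach from 1.44 to 4.02 and from 1.56 to 4.14, while those of Apcs stay between 1.54 and 1.92 in the first comparison and between 1.75 and 3.15 in the second.

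After IFN-γ in Ifng-null mice 4 of the 6 differences were positive, against 39% of all tested probe sets. Both IFN-γ arrays lay above both PBS arrays for Saa3 and the dimmer Saa2 probe set, against 9.8% of all tested probe sets. For Crp both lay below, an order whose share over all probe sets was not computed. Saa3 was 3.80-fold (log2 1.93 ± 0.73 SE, limma adjusted p = 0.591), the brighter Saa2 probe set 3.41-fold (1.77 ± 0.94 SE), the dimmer 2.56-fold (1.35 ± 0.58 SE) and Apcs 1.71-fold (0.78 ± 0.44 SE) higher. By replicate number, the brighter Saa2 probe set read 3588 after PBS and 3101 after IFN-γ for replicate 1, and 479 and 6434 for replicate 2. The main fit did not pair the arrays. The Saa2 values turn on the 2 PBS arrays. Without replicate 2 the difference was 0.32 on the brighter and 0.72 on the dimmer probe set, and without replicate 1 it was 3.22 and 1.99. For Saa3 it ranged from 1.25 to 2.61 and for Apcs from 0.37 to 1.18 on leaving out 1 array. Crp differed by -0.21 and Saa4 by -0.37 on the log2 scale. None of the 6 passed the test, and 0.653% of all tested probe sets did.

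Without a cytokine no member passed the test between Ifng-null mice and controls. Both Ifng-null arrays lay above both control arrays for Apcs (log2 0.72 ± 0.44 SE, limma adjusted p = 0.873) and Saa3 (0.43 ± 0.73 SE), an order seen for 12.8% of all tested probe sets. The brighter Saa2 probe set differed by -0.02 with a 95% interval from -2.14 to 2.10, so even large differences are within the error. Limma called 0% of all tested probe sets, with 297 at an unadjusted p under 0.05. Without the array of high pancreatic enzyme signal in the control group the brighter Saa2 probe set differed by -1.31, the dimmer by -0.88 and Saa4 by -0.63.

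The patterns over the arrays differed among the members. As Pearson's r of log2 intensity over 12 arrays, which share 6 groups, Saa2 on its dimmer probe set correlated with Saa3 at 0.855 and with Apcs at 0.817, and on its brighter one at 0.75 and 0.72. Saa4 correlated with Crp at 0.822, with its genomic neighbour Saa3 at 0.146, with Apcs at 0.376 and with Saa2 at 0.472 (dimmer) and 0.509 (brighter). Crp correlated with Apcs at 0.683, with Saa2 at 0.623 (dimmer) and 0.552 (brighter) and with Saa3 at 0.408. Between Saa3 and Apcs the value was 0.702. The values thus form a range, and no grouping of the members was tested. The 3 genes most like the brighter Saa2 probe set were Mt1 (r = 0.948) and Mt2 (0.939), which encode metallothioneins, and Serpina3n (0.946), which encodes an acute phase protease inhibitor. Mt1 shared the split of the PBS groups, with 1197 and 176 in control and 3654 and 358 in Ifng-null mice. Apcs was most like Lbp (0.890), the gene of the lipopolysaccharide-binding protein, Rab18 (0.873) and Serpina10 (0.871). Saa3 was most like Apex1 (0.929), which encodes a DNA repair endonuclease, Pcid2 (0.928) and Ccdc86 (0.926). Saa4 was most like Pdcd4 (0.880), Egfr (0.858) and Scp2 (0.854), and Crp most like Calu (0.967), Lpgat1 (0.957) and Hnrnph1 (0.897). These are the highest values among all tested genes and carry no test.

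Other genes of the family gave little signal. Ptx3, a long pentraxin made by myeloid and endothelial cells, lay below the floor on all arrays at 11.7 to 13.8. Nptx1 and Nptx2, neuronal pentraxins, read 49.99 to 71.1 and 126 to 157, and neither was called in any comparison. The pseudogene Saa-ps, added after its values were seen and measured by a family probe set, read 52.9 and 34.8 in control mice after PBS and 139 and 97.3 after IL-6. With Socs3 deleted it read 93.6 and 117 after PBS and 167 and 141 after IL-6. Its averaged IL-6 difference was 0.998 ± 0.21 (SE, log2, limma adjusted p = 0.0772), and signal from its close copies cannot be told apart on this probe set.

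Of 27 other positive acute phase genes 21 were measured and tested. In control mice after IL-6, 20 had positive differences (median 0.65) and none was called. Averaged over genotypes all 21 were positive (median 0.59) and 2 were called, while 1.06% of all tested probe sets were called. The 2 were Lcn2, the gene of the iron-trapping protein lipocalin-2 (log2 2.66 ± 0.47 SE, limma adjusted p = 0.0309), and Cd14, a co-receptor for lipopolysaccharide (0.75 ± 0.09 SE, limma adjusted p = 0.00546). Lcn2 read 53.5 and 31.6 in control mice after PBS, the second of them under the floor, and 1454 and 514 after IL-6. With Socs3 deleted it read 1006 and 1907 after PBS and 3157 and 2288 after IL-6, so, like Saa2, it was high without the cytokine. In Socs3-deleted mice IL-6 raised Cd14 (1.34) and A2m, the gene of the protease trap alpha-2-macroglobulin, which read 86.8 and 96.8 after PBS and 1452 and 1421 after IL-6 (log2 3.97 ± 0.78 SE, limma adjusted p = 0.0496). Between genotypes after PBS 20 of 21 were positive (median 0.92) and none was called, and after IL-6 Cd14 was higher in Socs3-deleted mice (1.44). None of the 21 was called after IFN-γ or between Ifng-null and control mice.

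Among genes of the inducing pathways 29 of 37 listed were tested. In Socs3-deleted mice 3 of them were called higher after IL-6, while 1.17% of all tested probe sets were called. The 3 were Jak2, a JAK kinase (log2 0.76), Bcl3, a nuclear partner of NF-kappaB (1.28), and Myd88, the adaptor of interleukin-1 and Toll-like receptors (1.21). Averaged over genotypes these 3 and Tnfrsf1a, a receptor for tumour necrosis factor (0.79), rose. After IL-6 the genotypes differed in Jak2 (0.64), Bcl3 (1.06), Myd88 (1.13) and Cebpd, the gene of the transcription factor C/EBP delta, which read 178 and 141 in control and 672 and 881 in Socs3-deleted mice (2.28 ± 0.32 SE, limma adjusted p = 0.0194). Myd88 also rose after IFN-γ (0.98). In control mice after IL-6 and between genotypes after PBS none of the 29 was called.

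In each of the remaining lists 1 gene was called. Of 13 tested HDL genes it was Abca1, the lipid exporter that forms HDL. It was higher after IL-6 in Socs3-deleted mice (log2 1.05 ± 0.15 SE, limma adjusted p = 0.0113) and averaged (0.90). Its control arrays read 377 and 345 after PBS and 616 and 589 after IL-6. Of 15 complement and Fc receptor partners of the pentraxins it was Fcgr1, a high-affinity IgG receptor, higher after IFN-γ (0.97 ± 0.12 SE, limma adjusted p = 0.00796). Of 8 tested glucocorticoid-responsive genes it was Sgk1, a hormone-induced kinase, higher in Socs3-deleted than in control mice after IL-6 (1.40 ± 0.22 SE, limma adjusted p = 0.025). Of all tested probe sets, 1.17% were called for IL-6 in Socs3-deleted mice, 1.06% averaged, 0.653% for IFN-γ and 0.954% between genotypes after IL-6.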

How the data were processed

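Each probe set has 1 deposited intensity value per array, on a linear scale. The software, background correction and scaling the authors used to make these intensity values are not given in the sources used here. Groups and replicate numbers came from the labels. Gene names came from the platform annotation, which gives 10833 probe sets 1 symbol, 396 several and 1193 none among 12422 that are not controls, and 66 control probe sets were left out. Values were floored at 33.0, the 25th percentile, and log2 was taken. With limma 3.58.1 in R 4.3.3 the 12 arrays were fitted together, with 1 mean for each of 6 groups (lmFit, contrasts.fit, eBayes), leaving 6 residual and 3.38 prior degrees of freedom. In each of 8 comparisons p-values were two-sided and adjusted by Benjamini-Hochberg over 9641 probe sets, and a probe set was called under 0.05. The number of arrays limits the precision.

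The members, gene lists and rules were chosen with earlier results of these data known. All member probe sets are named. For each member the 3 genes with the highest Pearson's r are named. From each list every called gene is named. The plan was to name up to 3 per comparison, by the smallest adjusted p, and up to 2 genes where none was called, by the largest averaged IL-6 difference. Neither limit was kept to throughout. The brightest probe set stands for a gene. For the cell type marker lists counts and sums are given, and not every marker is named. The code was tested on simulated data. Alternatives were other normalizations, floors, filters and variance models, array weights, only the arrays compared, a replicate block and leaving out each array. Amino acid sequences were not used here.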

Additional observations from a re-analysis of the deposited data

How the results depend on the processing

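Of 1200 recomputed log2 differences of the members, over 25 alternative settings, 1153 kept their direction and their side of the threshold, 12 lost the threshold, 5 gained it and 30 turned sign. In the averaged IL-6 comparison the count of called members was 0 in place of 1 with no filter, with robust eBayes, with only the arrays compared and without the 2 arrays rich in pancreatic enzyme RNA. That last setting was chosen after seeing the data. On leaving out 1 array it was 0 to 1 there and also for IL-6 in control mice, for IL-6 in Socs3-deleted mice and for the genotypes after PBS and after IL-6. Without the pancreatic arrays the sign turned for Saa4 in control mice after IL-6 (-0.0113), averaged (-0.0396) and between genotypes after PBS (-0.29), and for Apcs (0.398) and Crp (0.145) in Socs3-deleted mice after IL-6. With equal array medians the brighter Saa2 probe set differed by 0.0089 between Ifng-null and control mice.

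Ranges over leaving out 1 array held both signs for these differences. For Saa4 they were -0.0113 to 0.990 for IL-6 in control mice, -1.39 to 0.540 in Socs3-deleted mice, -1.88 to 0.0509 for the difference of responses, -0.452 to 0.515 averaged, -1.31 to 0.620 between genotypes after IL-6 and -0.627 to 0.374 between Ifng-null and control mice. For Crp they were -0.536 to 0.145 for IL-6 in Socs3-deleted mice, -0.0600 to 0.281 averaged and -0.389 to 0.226 between genotypes after IL-6. For Apcs they were -0.9996 to 0.398 for IL-6 in Socs3-deleted mice, and for Saa3 -1.69 to 0.964 for the difference of responses. For the brighter Saa2 probe set they were -0.0252 to 0.280 for IL-6 in Socs3-deleted mice and -1.47 to 1.43 between Ifng-null and control mice, and for the dimmer -0.884 to 0.651 in the latter. Fewer arrays entered these fits, and the lone array of a group is then assumed to vary like the others. Further causes were not tested.

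Counts over all probe sets moved more widely, from 4 to 142 against 102 averaged, 1 to 160 against 113 for IL-6 in Socs3-deleted mice, 8 to 68 against 63 for IFN-γ, 0 to 223 against 92 between genotypes after IL-6, 0 to 15 against 4 for the difference of responses, and 0 to 8 against 0 for IL-6 in control mice and for the genotypes after PBS. With the replicate block the count of called members stayed at 1 averaged (limma adjusted p = 0.0426 for Saa3) and 0 in the other 7 comparisons. Deviations of same-numbered arrays correlated from -0.254 to 0.665 over 15 pairs of groups, with 8 pairs over 0.1 and the highest value between the 2 Ifng-null groups. As not every pair was over 0.1 and no label ties the numbers to a shared animal or day, the numbers were not taken to pair the arrays. The low values between other groups do not set aside the 0.665 between the 2 Ifng-null groups. The IFN-γ comparison takes no account of such shared deviations. The replicate block fits 1 shift common to all 6 groups, so it does not cover deviations shared by these 2 groups alone. The 2 arrays per group limit every value, and on the brighter Saa2 probe set the PBS replicates of control and Ifng-null mice lie 5.97-fold and 7.48-fold apart.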
